A study of Mesocricetus auratus with 8 samples.

Results

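The Z-disc is the plate at the border of each sarcomere, the contractile unit of striated muscle, where actin filaments of neighbouring sarcomeres are anchored and crosslinked. Its core is alpha-actinin, and a set of scaffold proteins binds alpha-actinin and ties it to filamin, to other structural proteins and to signalling enzymes. In muscle stem cells (satellite cells, SCs) these genes are switched on mainly as activated myoblasts leave the cell cycle and differentiate. The mRNA levels of 10 Z-disc scaffold genes were described here out of 17590 genes with values in the deposited table. The 10 were taken by gene symbol, and each symbol matched exactly 1 entry. They are the actin crosslinkers Actn2 (NCBI Gene 101842066) and Actn3 (101842197), the PDZ-LIM scaffolds Ldb3 (101844933) and Pdlim3 (101844259), the LIM-only protein gene Csrp3 (101834665), the myozenins Myoz1 (110343443) and Myoz2 (101839219), the immunoglobulin-domain scaffolds Myot (101837136) and Mypn (101836280), and Synpo2l (101839683) of the synaptopodin family.

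Hindlimb SCs of wild-type Syrian hamsters (Mesocricetus auratus, a hibernator; sexually mature males in the study's methods) were enriched by preplating and grown at 37°C for 48 h, then for 24 h in growth medium with 100 mM HEPES at 37°C. Control libraries (n = 4) were made before cold exposure, and cold libraries (n = 4) after a further 24 h at 4°C in the same medium. The comparison asks which transcripts differ after 24 h of cold. Cold libraries were therefore 24 h older than the controls, no library kept at 37°C for that day was analysed here, and age in culture and cold cannot be told apart. By title all 4 controls belong to day 3, but their treatment labels read 3 days at 37°C for replicate 1, then 4, 5 and 6 days for replicates 2, 3 and 4. The study calls its libraries biological replicates. The labels do not say whether those of one group came from separate animals or what a replicate number marks, so p-values measure the spread between these libraries only.

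Each library held between 16530747 and 18533801 expected counts. The largest component of variance (57.0%) set replicates 1 and 2 apart from replicates 3 and 4, in control and cold libraries alike, and libraries of the same number deviated together from their group means (r across genes of 0.63 to 0.68), so values are given by replicate number and a fit with the number as a block stands beside the unblocked fit. The 7 markers of satellite cells and myoblasts were found in every library, with Myod1 at 424 to 693 TPM, Des at 724 to 924 TPM and Pax7 at 10.8 to 16.1 TPM. Summed marker levels in any library lay between 1.96 and 3.87 TPM for endothelial cells and 1.67 and 2.77 TPM for Schwann cells, and adipocyte markers reached at most 0.10 TPM. Markers of smooth muscle cells and pericytes summed to 38.1 to 44.4 TPM, most of it Cspg4, with Myh11 at 1.64 to 2.90 TPM. Macrophage markers summed to 25.9 to 55.7 TPM, most of it Cd68, with Csf1r at 2.31 to 4.55 TPM and Ptprc and Adgre1 at no more than 0.03 TPM. Fibroblast markers were found at 737 to 1077 TPM in control libraries and 696 to 1033 TPM in cold ones, summed over 6 genes. TPM (a measure of transcript abundance scaled within each library and per transcript length) is the scale used here to set genes side by side.

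Every one of the 10 scaffold genes had a lower TPM in the cold library than in the control library of the same number in 4 of 4 pairs, a pattern held by 10.5% of the 12506 genes tested. The difference was largest for Csrp3, with mean TPM 6.52 times as high in control as in cold libraries, followed by Ldb3 (3.57 times) and Myot (3.43 times). It was smallest for Actn3, at 1.47 times, and Pdlim3 was next at 1.64 times. In 6 genes (Actn2, Ldb3, Csrp3, Myoz1, Myoz2 and Mypn) the 4 cold values all lay below the 4 control values, which was so for 2.41% of the genes tested. The plot of TPM by library shows these values together.

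**Figure D1:**
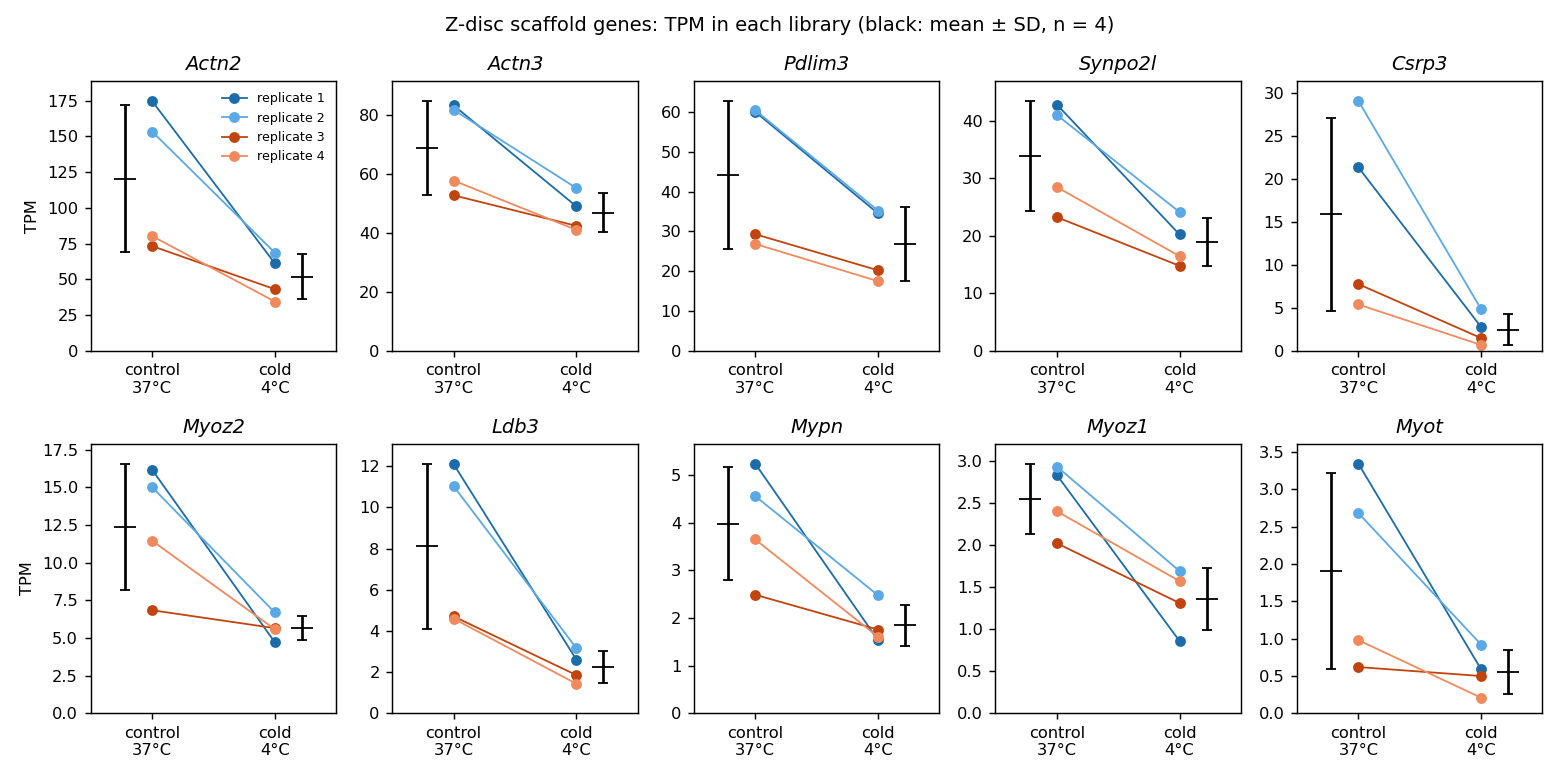
TPM of each of the 10 scaffold genes (vertical axis, linear and starting at 0, with its own range in each panel) in control (37°C) and cold (4°C) libraries. Points are single libraries, lines join libraries of the same replicate number, and black bars are the mean ± SD of 4 libraries. All 40 lines slope down, and in control libraries replicates 1 and 2 lie above replicates 3 and 4 in every panel.

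With edgeR's quasi-likelihood test without a block, all 10 genes passed the filter on low counts and all 10 had negative log2 fold changes (47.1% of genes tested did), but 0 of 10 passed both an adjusted p under 0.05 (Benjamini-Hochberg over all genes tested) and a log2 fold change of at least 1. That pair of thresholds called 0.04% of genes lower, and an adjusted p under 0.05 alone 0.072%. Of the 10, 9 had an unadjusted p under 0.05, against 4.13% of genes lower at that level, and DESeq2 called 4 of the 10 lower (Ldb3, Csrp3, Myoz2 and Mypn), against 0.528% of genes. With the replicate number as a block, 6 of the 10 passed both thresholds (Actn2, Ldb3, Csrp3, Myoz2, Myot and Mypn), against 0.808% of genes, and all 10 had an adjusted p under 0.05 with no fold threshold, against 4.07% of genes. The median log2 fold change of the 10 was −1.19 without and −1.17 with the block, where the median over all genes tested was 0.0071 and 0.0075. The study's text names Myoz2 and Mypn, but not Ldb3, among the genes it found lower on these same libraries. Its full list of called genes comes from them too, so the values of Ldb3, Myoz2 and Mypn are not independent evidence.

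**Figure D2:**
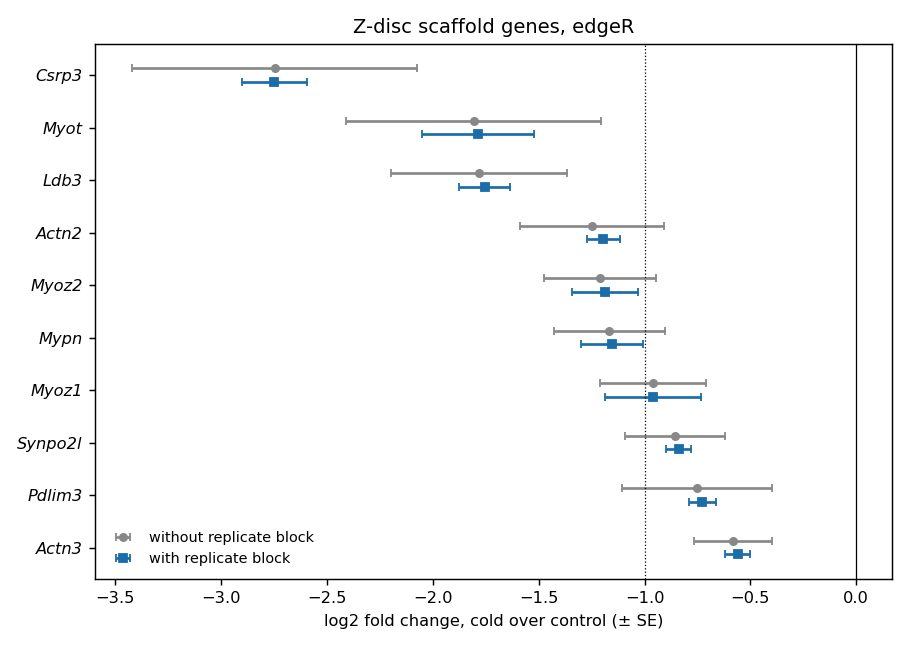
Log2 fold change of cold over control (horizontal axis) for the 10 scaffold genes, from edgeR without (grey circles) and with (blue squares) the replicate number as a block. Bars are standard errors, and the dotted line marks a log2 fold change of −1. The order runs from Csrp3 at −2.75 to Actn3 at −0.56 with the block, and the bars are shorter with the block in all 10 genes, least so for Myoz1 (0.25 and 0.23).

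The 5 genes listed as markers of differentiating myocytes (Myog, Mymk, Ckm, Myh3 and Tnnt1) moved with the scaffold genes, and with the block all 5 were lower (edgeR adjusted p of at most 2.24e-05), against 4.07% of genes. Without the block none of the 5 had an adjusted p under 0.05 (edgeR adjusted p between 0.135 and 0.824). The study singled out Myh3 and Tnnt1 on these same libraries, so their values are not independent evidence. Cold values were below control values in 4 of 4 pairs for each of the 5, against 10.5% of genes. Their summed level was 855 to 1891 TPM in control libraries and 457 to 942 TPM in cold ones, and none of the 5 was at 0 in any library. The 7 myoblast markers summed to 2018 to 2438 TPM in control libraries and 1936 to 2268 TPM in cold ones. With the block 3 of the 7, Myod1, Cdh15 and Chrna1, were lower (log2 fold changes of −0.13, −0.32 and −0.32, edgeR adjusted p = 0.0200, 1.19e-05 and 0.000441), against 4.07% of genes, and without it none of these 3 passed (edgeR adjusted p = 0.999, 0.826 and 0.275). In RNA from whole cultures, fewer differentiating cells and less RNA per cell cannot be told apart, and the part of the myocyte markers in the fall of the scaffold genes was not tested.

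Alpha-actinin is the crosslinker on which the Z-disc is built, and Actn2 was the most abundant scaffold transcript. It stood at 175, 153, 73.3 and 80.3 TPM in control replicates 1 to 4 and at 61.2, 68.7, 43.1 and 34.5 TPM in cold replicates 1 to 4. The highest cold value, in replicate 2, was just under the lowest control value, in replicate 3. In edgeR's fit the log2 fold change came to −1.25 ± 0.34 (SE) without the block (adjusted p = 0.344) and −1.19 ± 0.08 with it (adjusted p = 4.03e-09). Actn3, the fast-fibre alpha-actinin, stood at 83.2, 81.7, 52.7 and 57.7 TPM in control and 49.0, 55.2, 42.4 and 41.0 TPM in the cold, for replicates 1 to 4. Only cold replicate 2 reached into the control range. For this gene edgeR estimated a log2 fold change of −0.58 ± 0.19 (SE) without the block (adjusted p = 0.475) and −0.56 ± 0.06 with it (adjusted p = 3.03e-06).

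Set against each other within a library, the 2 sarcomeric actinins had different ratios before and after the cold. Actn2 was 2.10, 1.88, 1.39 and 1.39 times as abundant as Actn3 in control replicates 1 to 4 and 1.25, 1.25, 1.02 and 0.841 times in cold replicates 1 to 4. That ratio declined from control to cold in 4 of 4 pairs, and in cold replicate 4 Actn3 was the more abundant of the pair. This ratio was compared after its values were seen and is a description.

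Ldb3 encodes a PDZ-LIM protein that binds alpha-actinin through its PDZ domain and helps to hold the Z-disc together under load. It stood at 12.1, 11.0, 4.71 and 4.60 TPM in control replicates and at 2.61, 3.17, 1.86 and 1.44 TPM in cold replicates 1 to 4. Every cold value was under every control value, with the lowest control 1.45 times as high as the highest cold library, the widest gap of the 10 genes. The edgeR estimate on the log2 scale was −1.78 ± 0.41 (SE) without the block (adjusted p = 0.241) and −1.75 ± 0.12 with it (adjusted p = 8.49e-09). Pdlim3, the actinin-associated LIM protein, stood at 60.1, 60.5, 29.3 and 26.9 TPM in control and 34.6, 35.3, 20.2 and 17.5 TPM in the cold, for replicates 1 to 4. Here the groups overlapped, and the cold libraries of replicates 1 and 2 lay above the controls of replicates 3 and 4. In edgeR's fit the log2 fold change came to −0.75 ± 0.36 (SE) without the block (adjusted p = 0.797) and −0.73 ± 0.06 with it (adjusted p = 2.20e-07). The drop from control to cold within a number spanned 1.45 to 1.74 times for Pdlim3 and 2.53 to 4.64 times for Ldb3.

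Csrp3 encodes muscle LIM protein, which binds alpha-actinin and takes part in the sensing of stretch. It stood at 21.3, 29.1, 7.75 and 5.38 TPM in control and 2.76, 4.84, 1.47 and 0.67 TPM in the cold, for replicates 1 to 4. The cold values all lay below the controls, and within a number the control was between 5.27 and 8.03 times as high. Cold replicate 4 held 6 counts of this gene, so its level there is imprecise, whereas control replicate 2 held 269. For this gene edgeR estimated a log2 fold change of −2.75 ± 0.68 (SE) without the block (adjusted p = 0.269) and −2.75 ± 0.15 with it (adjusted p = 4.98e-10), and DESeq2 without a block gave an adjusted p of 0.0412.

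The myozenins bind alpha-actinin and filamin C and tether the phosphatase calcineurin to the Z-disc. Myoz2, the form of slow and cardiac fibres, stood at 16.2, 15.0, 6.85 and 11.5 TPM in control and 4.73, 6.70, 5.66 and 5.59 TPM in the cold, for replicates 1 to 4. Controls ranged widely and cold libraries narrowly, with the lowest control (replicate 3) only 1.02 times as high as the highest cold library. The edgeR estimate on the log2 scale was −1.21 ± 0.26 (SE) without the block (adjusted p = 0.183) and −1.19 ± 0.16 with it (adjusted p = 3.73e-05). Myoz1, the fast-fibre form, was scarce, at 2.83, 2.93, 2.02 and 2.40 TPM in control and 0.86, 1.69, 1.31 and 1.57 TPM in the cold, for replicates 1 to 4. These values rest on 12 to 40 counts a library, and cold replicate 1 was the lowest. In edgeR's fit the log2 fold change came to −0.96 ± 0.25 (SE) without the block (adjusted p = 0.306) and −0.96 ± 0.23 with it (adjusted p = 0.0155), and DESeq2 with the block gave an adjusted p of 0.250. Myoz2 was 3.39 to 5.72 times as abundant as Myoz1 in control and 3.56 to 5.50 times in cold libraries.

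Myotilin and myopalladin belong with palladin to a family of immunoglobulin-domain proteins that bind alpha-actinin, and myopalladin also links it to nebulin. Mypn stood at 5.24, 4.56, 2.49 and 3.65 TPM in control and 1.54, 2.48, 1.76 and 1.61 TPM in the cold, for replicates 1 to 4. The groups touched without overlapping, at 2.49 TPM in control replicate 3 and 2.48 TPM in cold replicate 2. For this gene edgeR estimated a log2 fold change of −1.17 ± 0.26 (SE) without the block (adjusted p = 0.216) and −1.15 ± 0.15 with it (adjusted p = 2.64e-05). Myot was the scarcest of the 10, at 3.34, 2.68, 0.62 and 0.98 TPM in control and 0.59, 0.92, 0.50 and 0.21 TPM in the cold, for replicates 1 to 4. Cold replicate 2 exceeded control replicate 3, and the counts fell between 5 and 80 a library. The edgeR estimate on the log2 scale was −1.81 ± 0.60 (SE) without the block (adjusted p = 0.523) and −1.79 ± 0.26 with it (adjusted p = 0.000158), while within a number the control was between 1.24 (replicate 3) and 5.66 (replicate 1) times as high.

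Synpo2l encodes a synaptopodin-like, actin-associated protein of the Z-disc. It stood at 42.8, 41.0, 23.2 and 28.4 TPM in control and 20.2, 24.1, 14.8 and 16.4 TPM in the cold, for replicates 1 to 4. Only cold replicate 2 reached above the lowest control. In edgeR's fit the log2 fold change came to −0.86 ± 0.24 (SE) without the block (adjusted p = 0.349) and −0.84 ± 0.06 with it (adjusted p = 1.28e-08), short of the fold threshold, and DESeq2 gave an adjusted p of 0.0227 without a block.

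In single-gene exact two-sided permutation tests of TPM over the 70 arrangements of 4 against 4 libraries, the 6 genes whose groups did not overlap had p = 0.0286, the smallest p the design allows. In the same exact permutation tests Actn3, Myot and Synpo2l had p = 0.0571 and Pdlim3 had p = 0.171. Paired by number, an exact sign-flip test of 4 pairs cannot give a p below 0.125, and that value was reached by all 10 genes.

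The scaffold genes also differed widely between libraries of one group. In control libraries the highest value was between 1.45 (Myoz1) and 5.40 (Csrp3) times the lowest, and replicates 1 and 2 lay above replicates 3 and 4 in all 10 genes, against 19.0% of the genes tested. In cold libraries the same split held in 7 genes, against 26.5% of genes, and not in Myoz1, Myoz2 and Mypn. All 5 myocyte markers split the same way in both groups, with summed levels of 1891, 1851, 855 and 938 TPM in control replicates 1 to 4. Of the 7 satellite cell and myoblast markers, replicates 1 and 2 lay above in 5 and below in 2 in control libraries. In cold libraries they lay above in 3 and below in 1. Of the 6 fibroblast markers, 4 (Col3a1, Pdgfra, Dcn and Lum) had replicates 1 and 2 below replicates 3 and 4 in both groups. Col1a1 and Col1a2 split neither way. The share of all genes with this downward split was not computed. The 6 fibroblast markers summed to 737, 748, 835 and 1077 TPM in control replicates 1 to 4. The part of these markers in the split was not tested. With replicates 1 and 2 alone, 7 of the 10 genes passed both thresholds, against 1.41% of genes, and the median log2 fold change was −1.41. Replicates 1 and 2 were the most alike libraries of each group, so the spread in that fit is small. With replicates 3 and 4 alone, Ldb3 (−1.47, edgeR adjusted p = 0.0356) and Csrp3 (−2.59, adjusted p = 0.0445) passed both, against 0.214% of genes, and the median was −0.81. Whether the size of the fall differs between these pairs of replicates was not tested.

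The order of the levels was nearly the same before and after the cold. In control libraries it ran Actn2, Actn3, Pdlim3, Synpo2l, Csrp3, Myoz2, Ldb3, Mypn, Myoz1 and Myot by mean TPM. In that order 3 pairs of neighbours changed places in 1 of 4 control libraries, namely Pdlim3 with Synpo2l, Csrp3 with Myoz2, and Myoz1 with Myot. In the cold, Csrp3 was below Myoz2 in 4 of 4 libraries, and Csrp3 and Ldb3 could not be ordered, each being the higher in 2 of 4. Actn2 was above Actn3 and Ldb3 above Mypn in 3 of 4 cold libraries each. The ratio of Csrp3 to Myoz2 was 1.32, 1.93, 1.13 and 0.469 in control replicates 1 to 4 and 0.584, 0.722, 0.260 and 0.120 in cold replicates 1 to 4.

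Most of the scaffold genes have relatives that were listed here as expressed in many cell types, where such proteins organise actin at stress fibres and adhesions. How far each of these relatives is also a muscle gene was not checked. Over 12 such relatives, 0 passed both thresholds in either direction with edgeR without or with the block, or with DESeq2, where these fits called 0.04%, 0.808% and 0.528% of all genes lower. With edgeR without the block 1 relative (Palld, lower) had an unadjusted p under 0.05, against 4.13% of genes lower at that level. The non-muscle alpha-actinins Actn1 and Actn4 were at 222 ± 12.2 and 348 ± 23.7 TPM in control and 237 ± 11.6 and 375 ± 26.4 TPM after cold (SD, n = 4 each). In 4 of the 12 relatives (Actn1, Actn4, Csrp2 and Synpo) TPM was higher after cold in 4 of 4 pairs, against 12.8% of genes, and in 4 (Palld, Pdlim4, Pdlim5 and Synpo2) it was lower in 4 of 4 pairs, against 10.5%. Actn1 and Actn4 had log2 fold changes of 0.08 and 0.09 that did not pass the test with the block (edgeR adjusted p = 0.219 and 0.144). Csrp1 and Csrp2, relatives of Csrp3, were at 269 ± 48.8 and 61.5 ± 18.3 TPM in control and 273 ± 56.5 and 65.9 ± 18.3 TPM after cold (SD, n = 4 each), with log2 fold changes of −0.00028 and 0.08. With the block, 3 relatives had an adjusted p under 0.05, and all 3 were lower (at that level 4.07% of genes were lower and 1.26% higher). They were Palld (log2 fold change −0.51, adjusted p = 1.52e-06), Pdlim4 (−0.26, adjusted p = 0.00145) and Synpo2 (−0.22, adjusted p = 0.00472). Without the block none of these 3 passed (edgeR adjusted p = 0.540, 0.824 and 0.940). The other relatives, Pdlim1, Pdlim2, Pdlim5, Pdlim7 and Synpo, had log2 fold changes between −0.11 and 0.04 with the block and did not pass.

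The ratio of a scaffold gene to its relatives within a library does not depend on scaling between libraries, and 8 such ratios were computed. All 8 were lower in the cold in 4 of 4 pairs. The scaffold genes were themselves lower in 4 of 4 pairs, and Actn2 shares its relatives with Actn3, as Myot does with Mypn. The 8 ratios are therefore not 8 separate results, and no share over ratios of other genes was computed. The log2 ratio of Csrp3 to the sum of Csrp1 and Csrp2 went from −4.68 ± 0.89 to −7.45 ± 0.95 (SD, n = 4 each), that of Ldb3 to Pdlim5 and Pdlim7 from −4.56 ± 0.69 to −6.29 ± 0.49, that of Actn2 to Actn1 and Actn4 from −2.34 ± 0.73 to −3.61 ± 0.54, and that of Mypn to Palld from −4.04 ± 0.18 to −4.74 ± 0.27. In these 4 ratios the groups did not overlap (exact two-sided permutation p = 0.0286, the smallest possible). For Actn3, Myot and Synpo2l the groups overlapped (exact permutation p = 0.0571 each), and for Pdlim3, whose log2 ratio to Pdlim1, Pdlim2 and Pdlim4 differed by −0.45, the exact permutation p was 0.286.

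**Figure D3:**
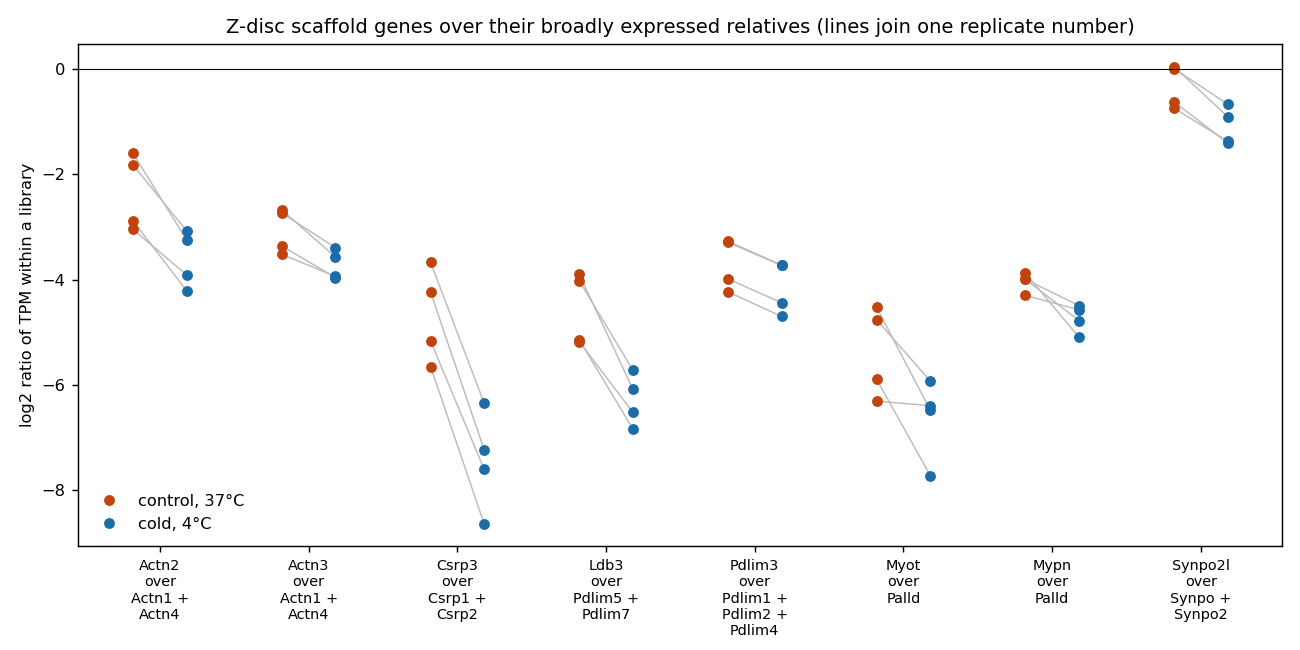
Log2 ratio of the TPM of a scaffold gene to the summed TPM of its broadly expressed relatives (vertical axis) in each library, for 8 scaffold genes. Red points are control and blue points cold libraries, and lines join libraries of one replicate number. Every line slopes down, most steeply for Csrp3, and Synpo2l alone came near a log2 ratio of 0, in control replicates 1 and 2.

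Of all alpha-actinin transcripts, Actn2 and Actn3 held 32.6%, 30.1%, 17.2% and 18.8% of the summed TPM in control replicates 1 to 4 and 15.9%, 17.6%, 11.6% and 10.6% in cold replicates 1 to 4. The share was lower in the cold in every pair, and cold replicate 2 was above control replicate 3. The summed TPM of the 4 genes lay between 732 and 791 in control libraries and between 693 and 735 in cold ones.

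**Figure D4:**
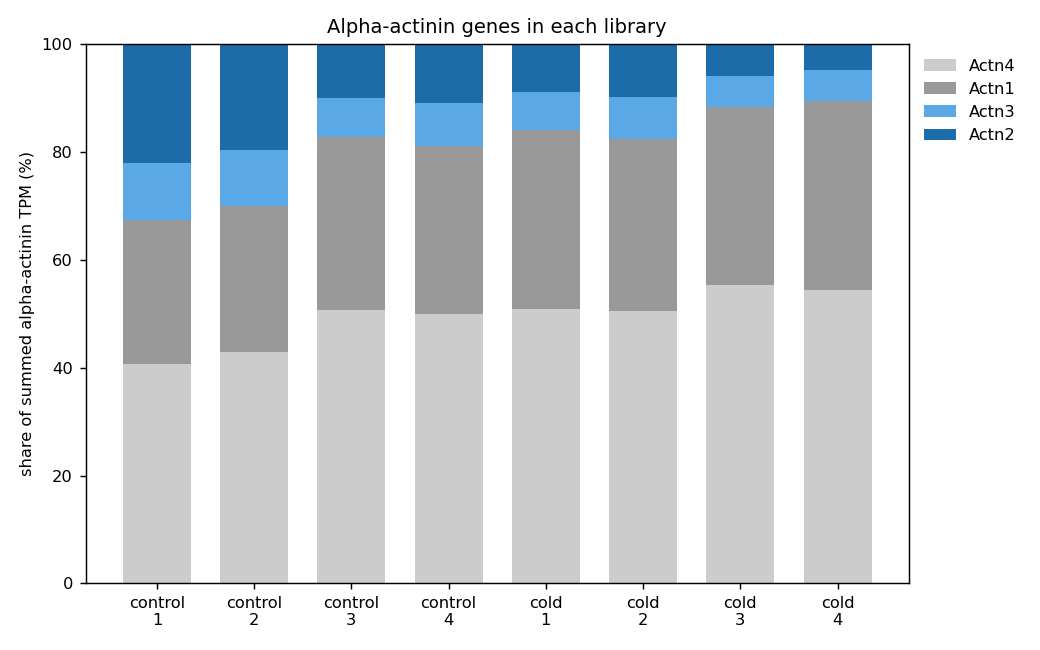
Share of the summed TPM of the 4 alpha-actinin genes (vertical axis, percent) held by each gene in each of the 8 libraries. The 2 blue segments are the sarcomeric genes Actn2 and Actn3, which together fill between 17.2% and 32.6% of the control bars and between 10.6% and 17.6% of the cold bars, and the grey segments are Actn1 and Actn4.

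Of a list of 20 other genes of the Z-disc or linked to it, 17 had values and 14 passed the filter. The 3 that did not pass were Myoz3, Nebl and Ankrd2, at no more than 0.20 TPM in any library, while Tcap, Xirp1 and Nrap were not analysed here. Without the block 0 of the 14 passed both thresholds with edgeR, against 0.04% of genes lower, and 8 had an unadjusted p under 0.05, all lower, against 4.13%. DESeq2 without a block called 1 (Smpx), against 0.528%. With the block 1 passed both (Smpx), against 0.808% of all genes tested, and 9 had an adjusted p under 0.05, all lower, against 4.07% of genes. The median log2 fold change of the 14 was −0.49 in both fits. Smpx, a small muscle protein that the study also singled out, was at 8.19, 6.40, 4.14 and 3.90 TPM in control and 0.79, 1.65, 1.06 and 0.63 TPM in the cold, for replicates 1 to 4, a log2 fold change of −2.45 in both fits. Cryab, a small heat shock protein of the Z-disc, was at 272 ± 43.5 TPM in control libraries and 152 ± 16.3 TPM in cold ones (SD, n = 4 each; log2 fold change −0.84, adjusted p = 3.54e-06 with edgeR and the block).

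The filamin gene Flnc, whose product binds the myozenins and myotilin, was at 92.0 ± 9.47 TPM in control libraries and 67.9 ± 2.96 TPM in cold ones, and Neb, the nebulin that runs along the thin filament, was at 16.1 ± 0.54 and 11.3 ± 1.06 TPM (SD, n = 4 each). The groups did not overlap in either gene. All 4 cold values lay below all 4 controls in 5 of the 17 listed genes with values, Flnc, Neb, Smpx and Cryab among them, against 2.41% of the genes tested, and 7 of the 17 had lower TPM in 4 of 4 pairs, against 10.5%. The Flnc and Neb log2 fold changes with the block were −0.45 (edgeR adjusted p = 1.63e-06) and −0.54 (adjusted p = 6.74e-08), and Neb alone among the 14 had an adjusted p under 0.05 without the block (0.0454). Ankrd23 and Fbxl22 were lower as well in the fit with the block, with log2 fold changes of −0.91 and −0.52 and lower TPM in 4 of 4 pairs, but not without it (edgeR adjusted p = 0.531 and 0.688). Xirp2 and Ttn had log2 fold changes of −0.72 and −0.18 with the block (edgeR adjusted p = 0.0216 and 0.0159) and did not pass without it (0.650 and 0.766). Xirp2 TPM was lower in 3 of 4 pairs, and its adjusted p was 0.348 in DESeq2 with the block. Ttn TPM was lower in 2 of 4 pairs, with higher cold values in replicates 1 and 2. The 5 that did not pass it were Ankrd1, Des, Bag3, Capzb and Lmcd1, with log2 fold changes between −0.11 and 0.11. Ankrd1, which encodes a titin-binding repeat protein, was the most abundant of the list at 1368 ± 96.1 TPM in control libraries and 1294 ± 114 TPM in cold ones (SD, n = 4 each), and Capzb, which caps actin filaments at the Z-disc, was at 509 ± 22.1 and 495 ± 10.1 TPM.

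**Figure D5:**
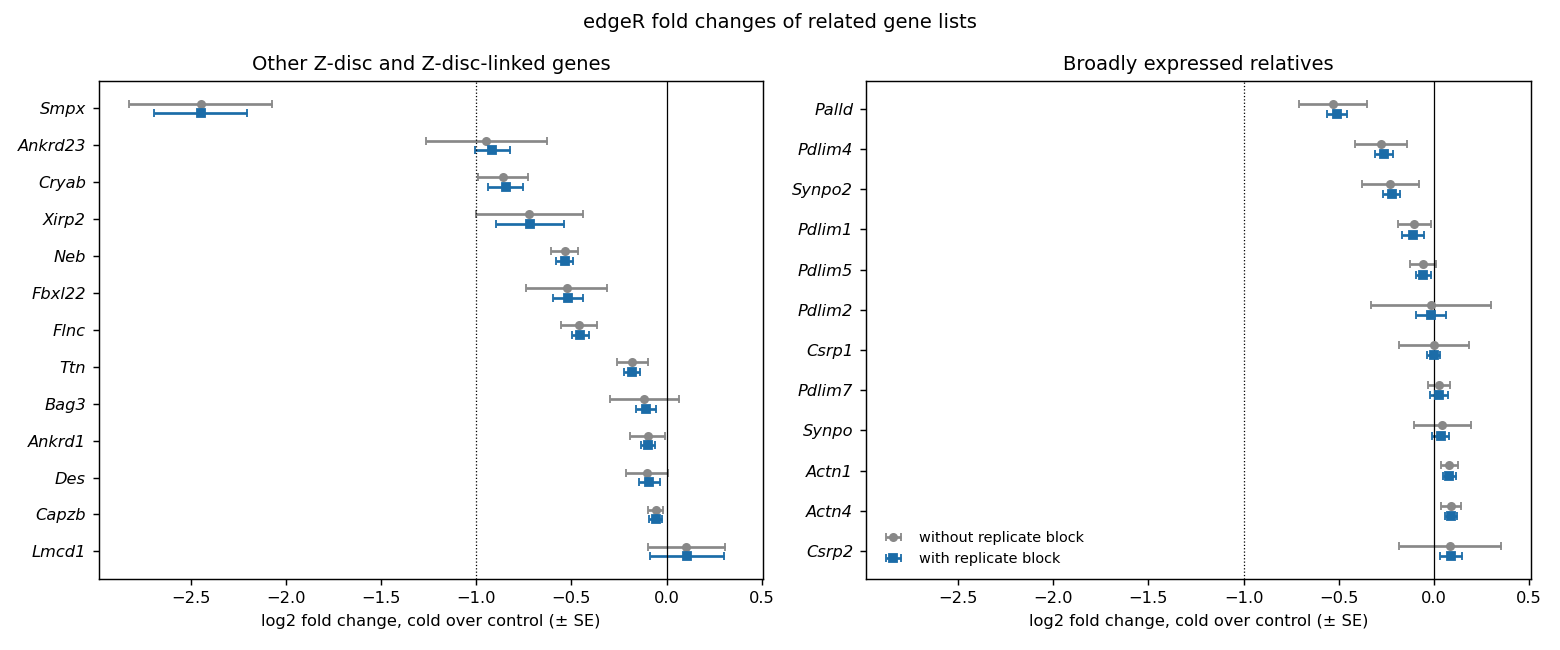
Log2 fold change of cold over control (horizontal axis, bars are standard errors) for 13 of the 14 other Z-disc genes that passed the filter (left) and the 12 broadly expressed relatives (right), from edgeR without (grey) and with (blue) the replicate block. The left panel runs from −2.45 (Smpx) to 0.11 (Lmcd1), the right panel from −0.51 (Palld) to 0.09 (Csrp2) with the block, and the dotted line marks −1.

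Across the 8 libraries each scaffold gene followed the mean of the other 9 on the log2(TPM + 0.1) scale, with Pearson's r between 0.787 (Myoz1) and 0.992 (Actn3). The libraries share condition and replicate number, and these values are a description. Out of 10491 other genes with a symbol and at least 1 TPM on average, the 5 whose pattern over the 8 libraries was most like the mean of the scaffold genes were Stac2 (r = 0.997), Svil (0.994), Myom1 (0.994), Unc45b (0.994) and Mef2c (0.993). Myom1 encodes an M-band protein, Unc45b a chaperone of myosin, and Mef2c a transcription factor of muscle differentiation. The study's text names Unc45b and Mef2c, but not Stac2, among the genes it found lower on these same libraries, from which its full list of called genes also comes. With the block the log2 fold changes of Stac2, Svil, Myom1, Unc45b and Mef2c were −1.29, −1.13, −0.47, −1.0 and −1.43.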

How the data were processed

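Poly(A) RNA libraries of 8 SC cultures were sequenced for the authors by an outside provider. The submitters' processing notes name HISAT and HISAT2, and the counting program, versions and genome build are not given in the sources used here, so no coordinates or sequences are printed. One deposited table gave expected counts per gene (estimated by the authors, not normalized, 96.4% to 96.6% whole), TPM as deposited, scaled per library, and a further set of values, a signal in which the authors multiplied counts by 1 factor per library, not tested here. All 10 symbols matched RefSeq by identifier.

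After rounding of the expected counts, edgeR 4.0.16 (R 4.3.3) compared 4 cold with 4 control libraries by its quasi-likelihood test, with filterByExpr, TMM factors and Benjamini-Hochberg adjustment over 12506 genes. Standard errors are the log2 fold change over the square root of F. TPM were compared by exact permutation. Replicate numbers come from the titles and column names. They were taken to pair the libraries, and a blocked fit was added. Every same-number correlation of deviations from the group means was at least 0.632, against at most 0.626 between different numbers. That gap is small, so the correlations do not establish the pairing within replicates 1 and 2. They were also computed on the same expression values that the blocked fit uses. On simulated data with a replicate effect, edgeR recovered 185 of 200 known changes without the block and 195 with it. That simulation gave all genes the same noise level and each number exactly the same replicate effect in both groups. Its changes were also larger than those of most scaffold genes. It checks that the fits run correctly, and does not show how well they perform on these libraries. Alternatives were DESeq2 1.42.0, limma 3.58.1 on log2(TPM + 0.1), with pseudocounts of 1 and 0.01, other scalings and filters, and left-out libraries. The 10 genes, the lists and the tests were chosen with earlier results of these data known. The genes whose values are given are the 10, the listed relatives, the other Z-disc genes needed to account for their list, the cell type markers, and the 5 most similar genes, while 1 gene of the other Z-disc list is counted but not reported here. No library was a copy of another: the chi-square statistic per gene between replicates was at least 2.46, where sampling noise alone gives about 1. Between replicates 1 and 2 it was 2.46 in control and 2.78 in cold libraries, and between replicates 3 and 4 it was 6.99 and 4.78. Across that split it lay between 18.9 and 27.0. Replicates on the same side of the split were thus far more alike, while the tests count all 4 libraries of a group as separate.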

Additional observations from a re-analysis of the deposited data

How the results depend on the processing

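All 250 fold changes of the 10 scaffold genes under 25 alternatives were negative. The setting with no fold threshold repeats the fold changes of the main fit. All settings reuse the same libraries, in which every scaffold gene was lower in each numbered pair, so the shared sign is not separate support. Their median log2 fold change lay between −1.41 (replicates 1 and 2 alone) and −0.80 (limma on log2(TPM + 1), which took Myot from −1.81 to −0.80). The number of the 10 called lower was 0 in the unblocked edgeR fit and stayed 0 with RLE factors, library totals, the other filters, limma and no fold threshold. It was 6 with the replicate block, 4 with DESeq2, 6 with DESeq2 and the replicate block, 7 with replicates 1 and 2 alone and 2 with replicates 3 and 4 alone. Leaving out single libraries gave 0 to 1 (Myoz2, without control replicate 3), and leaving out a numbered pair under the replicate block gave 4 to 7. Without replicate 1, Myoz2 and Mypn were not called under the block, while Actn2, Ldb3, Csrp3 and Myot were called in each of these 4 fits.

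Over all genes, 5 were called lower and 0 higher without a block. The counts were 101 lower and 5 higher with the replicate block, 66 lower with DESeq2, 85 lower and 1 higher with DESeq2 and the replicate block, 8 lower with library totals, 15 with no filter beyond 1 count, 3 with limma under each pseudocount, 9 with no fold threshold, 175 lower and 8 higher with replicates 1 and 2 alone, and 27 lower and 1 higher with replicates 3 and 4 alone. Leaving out single libraries gave 0 to 33 lower and 0 to 1 higher, and leaving out pairs under the block gave 81 to 131 lower and 3 to 7 higher. Of the other Z-disc genes, 0 were called lower without a block, 1 with the replicate block, with DESeq2, with DESeq2 and the block, with no filter and with no fold threshold, and 4 with replicates 1 and 2 alone. Leaving out libraries or pairs gave 0 to 3. No broadly expressed relative was called in either direction in any of these fits. The 8 ratios to relatives kept their sign in every alternative, and with CPM in place of TPM the exact permutation p of Myot over Palld went from 0.0571 to 0.143. The size depended on single libraries. For Pdlim3 the difference in log2 ratio was −0.63 without control replicate 4 and −0.27 without cold replicate 4, against −0.45 with all libraries. With 5 counts of Myot and 6 of Csrp3 in cold replicate 4, the depth limits how well these levels are known. The cause of the differences between settings was not tested.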

Other observations

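Counts of the 10 scaffold genes were whole numbers in all 8 libraries. The transcript length implied by count over TPM, relative to its mean and to each library's own scale, was constant for Actn2 and Actn3 (highest over lowest of 1.001 and 1.000 across libraries) and nearly so for Pdlim3 (1.01), Myot (1.02) and Synpo2l (1.02). It varied for Ldb3 (1.24), Myoz2 (1.17) and Mypn (1.14). In Ldb3 the implied length was lowest in control replicate 3 (0.884) and cold replicate 4 (0.885) and highest in cold replicate 1 (1.10), with no split by condition. All scaffold genes together held 347 to 733 CPM in control and 210 to 346 in cold libraries.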
